A study of Mus musculus with 6 samples.

Results

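The genes described here encode the mouse MHC class II molecules and the proteins that load them with peptide. They were chosen by name: H2-Aa, H2-Ab1 and H2-Eb1 (the classical chains), Cd74 (the invariant chain), H2-DMa, H2-DMb1 and H2-DMb2 (H2-DM), H2-Oa and H2-Ob (H2-O) and Ciita (the class II transactivator). Of these 10 genes, 8 were found by symbol among 31626 deposited rows. The other 2 were found by Ensembl identifier, because these rows carry other symbols. The row with the identifier of H2-Ab1 (ENSMUSG00000073421) is named Rmcs2, and the row with that of H2-Aa (ENSMUSG00000036594) is named H2-Ea. Both are called H2-Ab1 and H2-Aa below and are counted apart from the 8.

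RNA was sequenced from C57Bl/6 common myeloid progenitors, the marrow cells that give rise to granulocytes, monocytes, red cells and platelets. All 6 libraries came from cells transformed with the retrovirus MSCV-MN1-IRES-GFP, which carries the leukaemia oncogene MN1 and a GFP marker, and grown in M3234 medium with FBS, IL3, IL6 and SCF. The 3 control libraries carry floxed Dot1l on both alleles (Dot1l flox/flox) and were transduced with a construct that the labels call only control, whereas the 3 Dot1l-deleted libraries (Dot1l -/-) were transduced with Cre. Cells were sorted on day 7 after Cre. No group received Cre with an intact Dot1l gene, so the loss of Dot1l and the presence of Cre cannot be told apart. The labels do not say whether the replicates were separate cultures or animals, and p-values here measure only the spread between these libraries. The labels give no age of the donor mice.

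MHC class II molecules are heterodimers of an alpha and a beta chain that show peptides from the endosome to CD4+ T cells. Each new dimer binds the invariant chain, encoded by Cd74, which endosomal proteases trim to a short fragment named CLIP. H2-DM then exchanges CLIP for peptide, and H2-O binds H2-DM and inhibits it. Transcription of these genes is classically switched on by Ciita, a coactivator without its own DNA binding that is recruited to the paired X and Y boxes of class II promoters. Professional antigen presenting cells (dendritic cells, B cells, macrophages) hold most class II protein, and myeloid progenitors hold little. In the H2b haplotype of C57BL/6 mice the alpha chain of the E molecule is not made, so the beta chain H2-Eb1 lacks its partner.

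The promoters are shown first because the members did not move together, and because the X and Y boxes are the shared element through which class II genes are classically described. RefSeq (build GRCm38.p6) gave 300 bases for 7 of the 10 genes, from 250 bases before to 50 after the start. Each was searched on both strands for AGNAAC, the core of the X1 box, and ATTGG, the core of the Y box. The pair was counted where ATTGG began 15 to 40 bases after the beginning of AGNAAC on the same strand; the motifs do not overlap at this spacing. The lines below hold 80 bases, from 110 to 31 bases before the start, written 5′ to 3′ on the strand of the gene, with AGNAAC of the pair and ATTGG in capitals.
H2-Oa (chr17:34092269-34092348, plus strand): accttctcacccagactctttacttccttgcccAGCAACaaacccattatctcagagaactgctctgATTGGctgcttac
H2-Ob (chr17:34238795-34238874, plus strand): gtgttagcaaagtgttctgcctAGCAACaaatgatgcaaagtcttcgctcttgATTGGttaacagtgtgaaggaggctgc
H2-DMb1 (chr17:34153081-34153160, plus strand): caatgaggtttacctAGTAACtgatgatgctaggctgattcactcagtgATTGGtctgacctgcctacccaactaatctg
H2-Eb1 (chr17:34305757-34305836, plus strand): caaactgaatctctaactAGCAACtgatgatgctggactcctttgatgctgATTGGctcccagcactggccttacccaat
H2-Aa (chr17:34287854-34287933, minus strand): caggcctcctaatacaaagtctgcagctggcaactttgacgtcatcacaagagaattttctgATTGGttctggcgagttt
H2-DMb2 (chr17:34145139-34145218, plus strand): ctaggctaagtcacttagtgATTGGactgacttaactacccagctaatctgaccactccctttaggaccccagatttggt

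The pair was found in 4 of the 7 genes, H2-Oa, H2-Ob, H2-DMb1 and H2-Eb1. Its spacing was 34, 31, 34 and 33 bases in that order. Among 32851 promoters of the same length the pair was present in 1.36%, whereas AGNAAC alone was present on either strand in 48.1% and ATTGG alone in 37.4%. H2-Aa and H2-DMb2 held ATTGG in the printed window without AGNAAC before it at this spacing. Neither of the 2 starts listed for H2-DMa held the pair. The window of the first (chr17:34122722-34122801) lies beside a window of the neighbouring gene Brd2 on the opposite strand (chr17:34122638-34122717). GENCODE M21 annotates further starts of H2-DMa that were not searched. Whether a promoter at those starts holds the pair is therefore not known, and H2-DMa cannot be counted as a gene without it. A match is a description of letters in a window, and a missing match says only that these letters are not there. Of the 4 genes with the pair, H2-Ob fell, H2-Oa and H2-DMb1 were not called as deposited, and H2-Eb1 was not tested, as the values below show.

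Before the results, 1 library needs mention. The third Dot1l-deleted library stood apart. Its median deviation from the mean of each gene over the 6 libraries was -0.366 on the log2 scale (0.0499 to 0.103 in the other 5), and its 10 most abundant rows held 39.0% of its FPKM, against 6.59% to 10.8% elsewhere. FPKM is the number of fragments scaled by transcript length and by the mapped fragments of the library, so levels of different genes can be compared within a library; between libraries it also moves with the share that a few abundant genes take. Calls that this library moves are given with and without it for the members and by count for the gene lists, and also after median-of-ratios scaling, which sets the libraries to a shared median level. Between 17310 and 18034 genes were above 0 per library; total fragment counts were not used here, so no counting interval is given. The lowest steps in small RNA genes put the depth of the libraries at roughly 0.739 to 1.0 times that of the first control, where 26 to 38 of 165 to 187 such genes shared a ratio within 0.02 on the natural log scale. Dot1l itself was at 20.2, 22.6 and 19.6 FPKM in the controls and at 8.24, 8.17 and 5.80 in the Dot1l-deleted libraries, lower in all 3. These are bulk libraries, in which fewer cells of a type and less RNA per cell cannot be told apart.

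Across the whole table, 11924 genes had a mean of at least 1 FPKM and were tested with limma on log2(FPKM + 1). Fold changes on this scale understate the change of low genes. Where the groups of a gene are said not to overlap, this describes that gene alone. The share of all tested genes without overlap is not given here. At a Benjamini-Hochberg adjusted p under 0.05 the test called 19.7% of genes changed, 7.43% higher and 12.2% lower in the Dot1l-deleted libraries. Of the 8 members found by symbol, 5 passed the filter on low values. H2-DMa and H2-Ob fell, Cd74 rose, and H2-DMb1 and H2-Oa were not called. H2-Ab1, found by identifier, also passed the filter and fell. The other 4 genes (H2-Aa, H2-Eb1, H2-DMb2 and Ciita) were below the filter and were not tested. The median log2 change of all tested genes was -0.16 as deposited, 0.00 after scaling and -0.03 without the third Dot1l-deleted library.

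**Figure D1:**
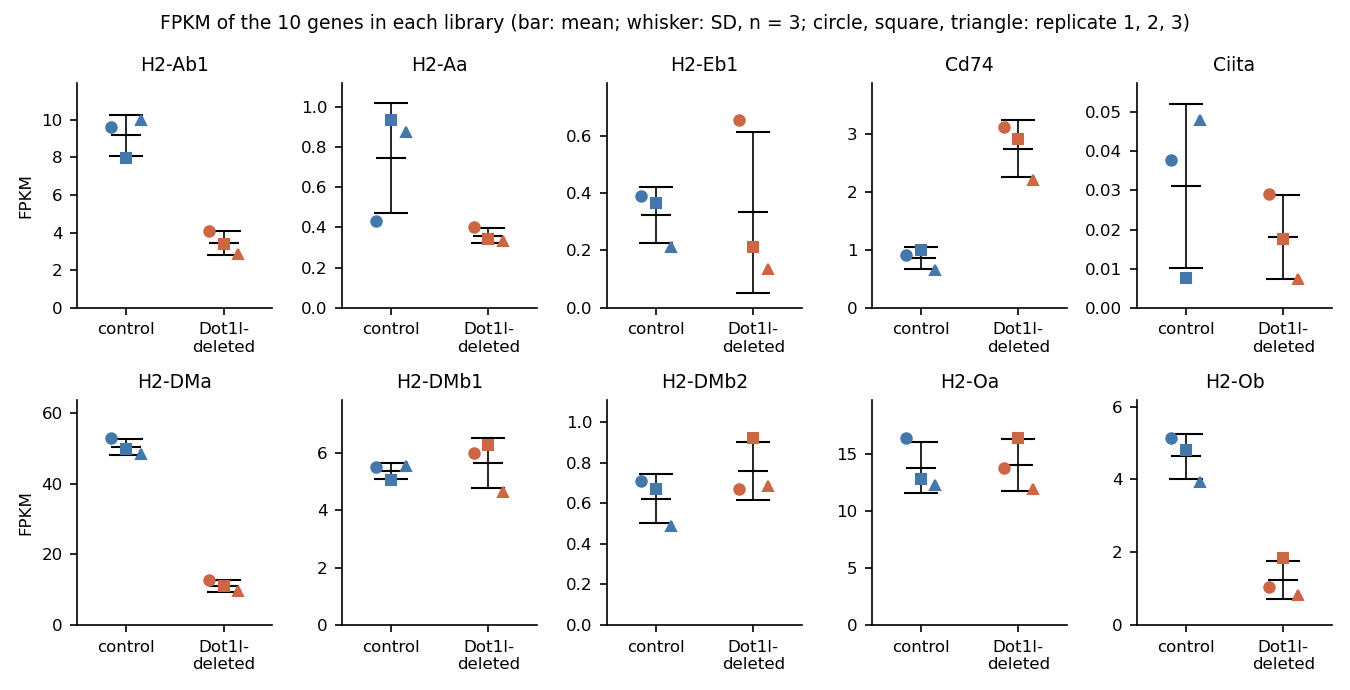
FPKM of the 10 genes in each library, with controls in blue and Dot1l-deleted libraries in orange; long bars are means, whiskers are SD (n = 3), each panel has its own axis from 0, and circles, squares and triangles are replicates 1, 2 and 3. H2-Ab1, H2-DMa and H2-Ob were lower and Cd74 was higher in all 3 Dot1l-deleted libraries than in any control.

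Among the classical chains, H2-Ab1 carried most of the signal. H2-Ab1, the beta chain of the A molecule, was at 9.64, 7.95 and 9.97 FPKM in the controls and at 4.11, 3.42 and 2.85 FPKM in the Dot1l-deleted libraries. The groups did not overlap. The mean fell 2.65-fold, from 9.18 ± 1.08 to 3.46 ± 0.629 FPKM (SD, n = 3), a log2 change of -1.20 (SE 0.156, limma adjusted p = 0.000336). H2-Aa, the alpha chain that pairs with it, was near the floor of the data, at 0.434, 0.932 and 0.873 FPKM against 0.402, 0.342 and 0.331 FPKM. The lowest control lay just above the highest Dot1l-deleted library, so the groups were apart only by a narrow margin. With no filter, where H2-Aa could be tested, its adjusted p was 0.135. H2-Ab1 was above H2-Aa in every library, by 8.53 to 22.2 times in the controls and by 8.62 to 10.2 times in the Dot1l-deleted libraries. H2-Eb1, the beta chain of the E molecule, was at 0.391, 0.367 and 0.213 FPKM against 0.653, 0.212 and 0.134 FPKM. These groups overlapped fully, and all 6 values were below 1 FPKM.

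The invariant chain moved the other way. Cd74 was at 0.917, 1.0 and 0.642 FPKM in the controls and at 3.12, 2.91 and 2.20 FPKM in the Dot1l-deleted libraries. All 3 Dot1l-deleted libraries were above all controls, and the level stayed low in both groups. The mean rose 3.21-fold, from 0.854 ± 0.188 to 2.74 ± 0.485 FPKM (SD, n = 3), a log2 change of 1.01 (SE 0.187, limma adjusted p = 0.00333). Cd74 passed the filter only through the Dot1l-deleted group, so its call is not independent of the filter. With no filter it was also called higher.

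H2-DM, the peptide exchanger, changed in 1 of its chains. H2-DMa, the alpha chain, was the most abundant of the 10 genes in the controls, at 53.1, 49.9 and 48.6 FPKM. In the Dot1l-deleted libraries it was at 12.8, 11.0 and 9.53 FPKM. The lowest control was far above the highest Dot1l-deleted library. The mean fell 4.56-fold, from 50.5 ± 2.32 to 11.1 ± 1.61 FPKM (SD, n = 3), a log2 change of -2.10 (SE 0.15, limma adjusted p = 5.351e-06). H2-DMb1, a beta chain, was at 5.51, 5.06 and 5.53 FPKM against 6.01, 6.29 and 4.64 FPKM. The groups overlapped, because the third Dot1l-deleted library lay below all controls and the other two above them. Its log2 change was 0.05 (SE 0.147, limma adjusted p = 0.827). H2-DMb2, the second beta chain gene, was at 0.708, 0.671 and 0.485 FPKM against 0.668, 0.922 and 0.686 FPKM, overlapping and below the filter. H2-DMb1 and H2-DMb2 are near-identical copies, and the labels do not record how the authors shared reads between them. Their summed FPKM, which does not depend on that split, changed by 0.08 on the log2 scale (SE 0.144, limma adjusted p = 0.746).

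The call for H2-DMb1 depended on the scaling and on the filter. After median-of-ratios scaling its log2 change was 0.21 (limma adjusted p = 0.0247) and that of the sum was 0.23 (limma adjusted p = 0.0167), both higher in the Dot1l-deleted libraries; under that scaling 45.3% of all genes were called changed. Without the third Dot1l-deleted library, where 38.4% of genes were called, the log2 change of H2-DMb1 was 0.17 (limma adjusted p = 0.107). H2-DMb1 was also not called after quantile normalization (0.15, limma adjusted p = 0.0904) or after median-of-ratios scaling with no filter (0.19, limma adjusted p = 0.0727).

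H2-O, the inhibitor of H2-DM, also changed in a single chain. H2-Ob, the beta chain, was at 5.15, 4.82 and 3.94 FPKM in the controls and at 1.05, 1.83 and 0.829 FPKM in the Dot1l-deleted libraries. Every control was above every Dot1l-deleted library. The mean fell 3.74-fold, from 4.63 ± 0.626 to 1.24 ± 0.527 FPKM (SD, n = 3), a log2 change of -1.35 (SE 0.198, limma adjusted p = 0.000746). H2-Oa, the alpha chain, was at 16.4, 12.8 and 12.3 FPKM against 13.8, 16.5 and 11.9 FPKM. The groups overlapped throughout, with a log2 change of 0.02 (SE 0.165, limma adjusted p = 0.941). H2-Oa, H2-Ob and H2-DMb1 share the X and Y core pair printed above, and of these H2-Ob alone passed the test as deposited.

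Ciita, the coactivator, was barely detected. Its values were 0.0377, 0.00764 and 0.0479 FPKM in the controls and 0.0290, 0.0176 and 0.00746 FPKM in the Dot1l-deleted libraries. The groups overlapped, and no fold is drawn from levels this low. In the controls, the order of mean FPKM was H2-DMa, H2-Oa, H2-Ab1, H2-DMb1, H2-Ob, Cd74, H2-Aa, H2-DMb2, H2-Eb1 and Ciita. Neighbours whose control values overlapped were H2-DMb1 with H2-Ob, Cd74 with H2-Aa, and H2-Aa with H2-DMb2. In the Dot1l-deleted libraries H2-Oa stood first, at 14 ± 2.28 FPKM (SD, n = 3), and H2-DMa followed at 11.1 ± 1.61, with overlapping values. H2-DMb1, H2-Ab1, Cd74, H2-Ob, H2-DMb2, H2-Aa, H2-Eb1 and Ciita came next, and the neighbours that overlapped there were H2-Ab1 with Cd74, H2-Ob with H2-DMb2, and H2-Aa with H2-Eb1.

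**Figure D2:**
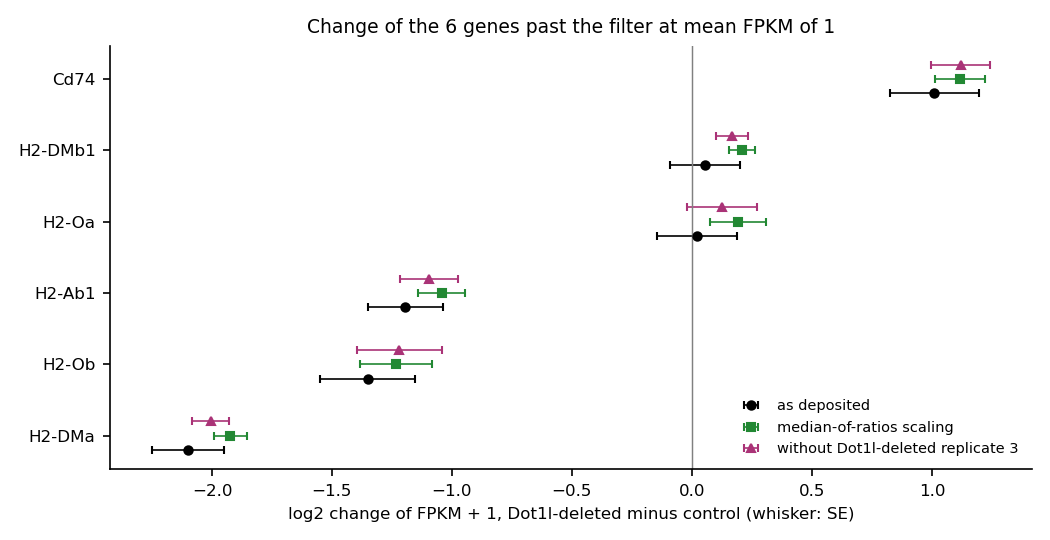
Log2 change of FPKM + 1 (Dot1l-deleted minus control, whiskers are SE) of the 6 genes past the filter, as deposited (black circles), after median-of-ratios scaling (green squares) and without the third Dot1l-deleted library (purple triangles). H2-DMa (-2.10), H2-Ob (-1.35) and H2-Ab1 (-1.20) lie on the lower side and Cd74 (1.01) on the higher side under all 3, while H2-Oa and H2-DMb1 lie near 0 or slightly above.

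H2-DMa, H2-Ob, H2-Ab1 and Cd74 were called in the same direction under all 15 alternatives. The log2 change of H2-DMa ranged from -2.20 to -1.79 and that of H2-Ab1 from -1.39 to -0.75. H2-Ob ranged from -1.89 to -0.63 and Cd74 from 0.40 to 1.58, the ends being set by the pseudocount. The highest adjusted p among these was 0.0123, for Cd74.

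Partners that work in 1 complex were then compared inside each library, where a scaling shared by the library largely cancels. In a design of 3 against 3 the exact two-sided permutation test cannot give a p below 0.1. H2-DMa exceeded H2-DMb1 by 8.79 to 9.84 times in the controls and by 1.74 to 2.12 times in the Dot1l-deleted libraries. On the log2(FPKM + 1) scale the difference between these chains went from 3.02 ± 0.0785 to 0.863 ± 0.133 (SD, n = 3), a change of -2.15 (exact permutation p = 0.1). Set against the summed H2-DMb genes, the change was -2.17. Every library of 1 group lay apart from every library of the other.

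In H2-O the balance moved further towards the alpha chain. H2-Oa was 2.66 to 3.19 times H2-Ob in the controls and 8.98 to 14.4 times in the Dot1l-deleted libraries. The log2(FPKM + 1) difference H2-Ob minus H2-Oa went from -1.39 ± 0.130 to -2.76 ± 0.122 (SD, n = 3), a change of -1.37 (exact permutation p = 0.1). The invariant chain came closer in level to H2-Ab1 and moved apart from H2-Aa. H2-Ab1 was 7.94 to 15.5 times Cd74 in the controls and 1.17 to 1.32 times Cd74 in the Dot1l-deleted libraries. The within-library difference Cd74 minus H2-Ab1 changed by 2.21, from -2.46 ± 0.290 to -0.25 ± 0.0690 (SD, n = 3), that of Cd74 minus H2-Aa by 1.36, from 0.0936 ± 0.307 to 1.45 ± 0.165, and that of Cd74 minus H2-DMa by 3.11. All 6 pairs gave the smallest exact permutation p of 0.1, which was also 0.1 after adjustment over the 6. For the pairs with Cd74 this p was fixed by the single-gene values. Cd74 rose without overlap, while H2-DMa and H2-Ab1 fell without overlap. H2-Aa, which was below the filter, was lower without overlap by a narrow margin only. The differences with Cd74 therefore had to separate. The changes of the H2-DM and H2-O pairs (-2.15, -2.17 and -1.37) largely restate those of H2-DMa (-2.10) and H2-Ob (-1.35) alone. The p-values of the pairs are therefore not separate evidence.

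**Figure D3:**
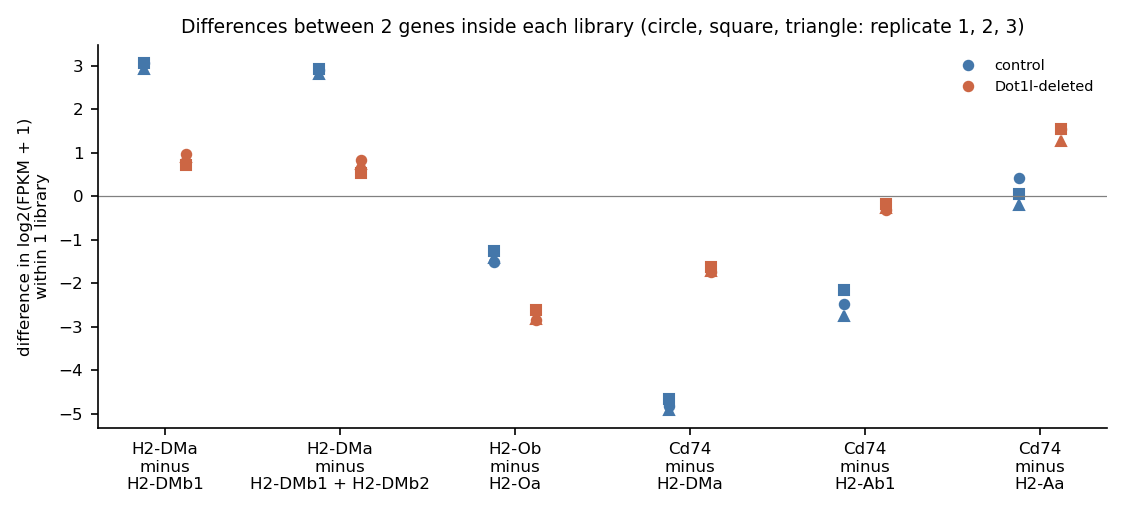
Difference in log2(FPKM + 1) between partner genes inside each library, with controls in blue and Dot1l-deleted libraries in orange, 1 symbol per library. The groups are apart in all 6 pairs: H2-DMa minus H2-DMb1 goes from 3.02 to 0.863 on average and Cd74 minus H2-Ab1 from -2.46 to -0.25.

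All members except Cd74 and Ciita lie together in the MHC on mouse chromosome 17, among genes of the class I pathway. In RefSeq order, 21 protein-coding genes run from H2-K1 to Btnl2. Of these, 16 were tested, 9 fell and 0 rose by the limma test (12.2% and 7.43% over all genes). Their median log2 change was -0.62, against -0.16 over all tested genes. After scaling, where 45.3% of all genes were called, 10 were called lower, and Col11a2, a collagen gene, and H2-DMb1 were called higher. The stretch from H2-Oa to Btnl2, whose ends were chosen after the values were seen, held 15 genes. Of its 10 tested genes 7 fell: H2-DMa, Psmb9, Tap1, Psmb8, Tap2, H2-Ob and H2-Ab1. Its 3 tested genes that were not called, H2-Oa, Brd2 and H2-DMb1, lie between or beside them. H2-DMa sits between Brd2, a BET bromodomain protein, and the H2-DMb genes. Annotated transcripts of H2-DMa reach into Brd2 on the opposite strand, and no source used here says whether counting used strand, so reads in that stretch cannot be told apart. Brd2 was at 84.5, 83.5 and 85.9 FPKM against 78.8, 74.6 and 57.0 FPKM, a log2 change of -0.28 (limma adjusted p = 0.288).

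**Figure D4:**
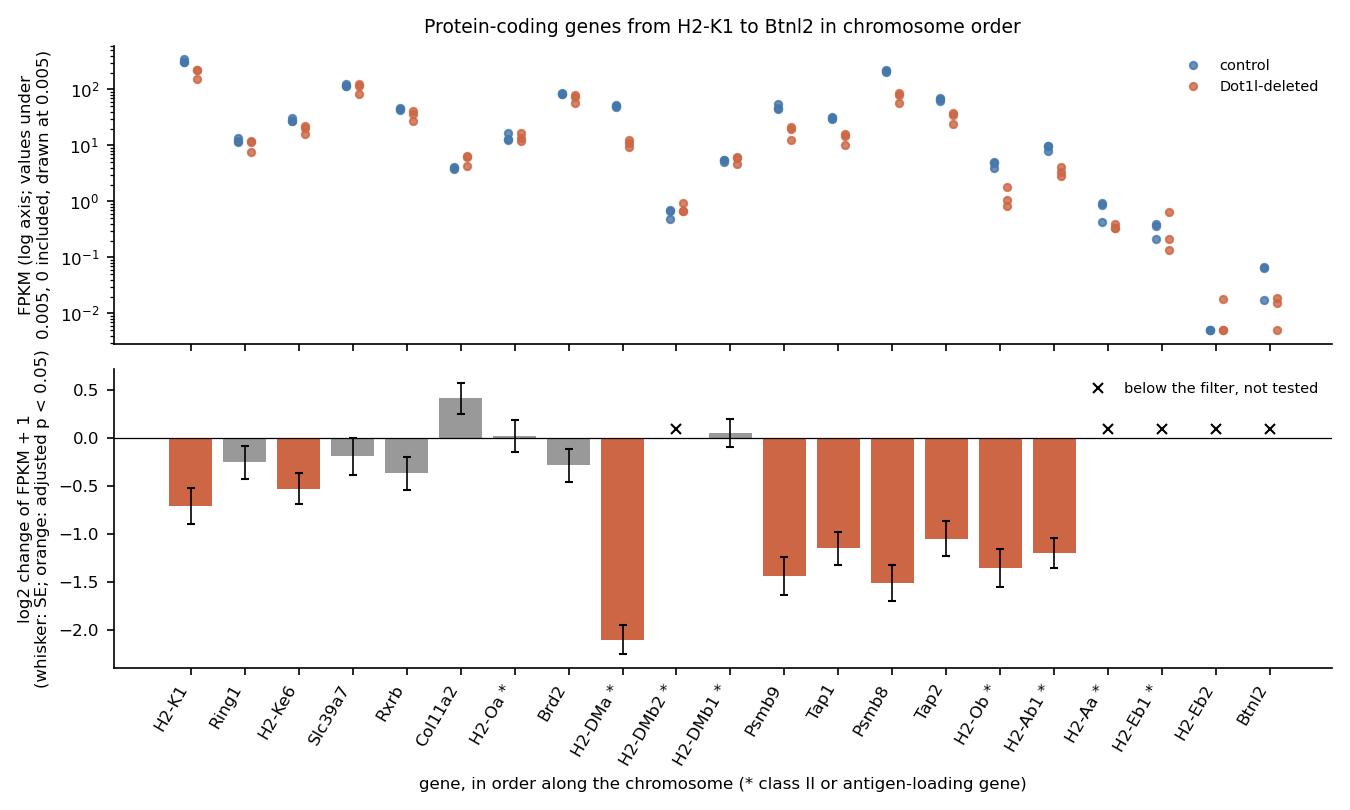
Genes from H2-K1 to Btnl2 in chromosome order (stars mark class II and antigen-loading genes). The upper panel shows FPKM per library on a log axis (controls blue, Dot1l-deleted orange) and the lower panel the log2 change of FPKM + 1 with its SE, in orange where the adjusted p was under 0.05, with crosses for genes below the filter; genes called as deposited are all on the lower side, and H2-Oa, Brd2 and H2-DMb1 among them are not called.

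Genes of 2 immunoproteasome subunits and of the peptide transporter, which serve class I loading, stand between H2-DMb1 and H2-Ob in this order. Psmb8, an immunoproteasome subunit, was at 220, 205 and 210 FPKM in the controls and at 86.6, 80.4 and 57.8 FPKM in the Dot1l-deleted libraries. It fell by 1.51 on the log2 scale (limma adjusted p = 0.000243). Psmb9, another such subunit, fell by 1.44 (limma adjusted p = 0.000443). Psmb10, the subunit encoded outside this region, was at 64.6 ± 3.45 against 53.2 ± 11.7 FPKM (SD, n = 3), a log2 change of -0.30 (limma adjusted p = 0.307). The 2 chains of the transporter that carries peptides into the endoplasmic reticulum also fell, Tap1 by 1.15 (limma adjusted p = 0.000859) and Tap2 by 1.05 (limma adjusted p = 0.00231). In Psmb8, Psmb9, Tap1 and Tap2 the groups did not overlap. In the class I list as a whole, 23 of 25 genes were tested, 6 fell (these 4, H2-K1 and H2-Q4) and 0 rose, with a median log2 change of -0.31 (12.2% and 7.43% of all genes, median -0.16). B2m, the light chain of class I molecules, was at 710 ± 24.4 against 624 ± 103 FPKM (SD, n = 3), a log2 change of -0.20 (limma adjusted p = 0.472). Among the listed neighbours of the class II genes, 15 were tested, 5 fell (these 4 and H2-Ke6) and 0 rose, with a median of -0.25. After scaling, where 45.3% of all genes were called, 1 class I gene was called higher and 10 lower, and 4 neighbours higher and 6 lower.

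Both genes of the interferon-gamma receptor rose, and so did Spi1. In the list of class II transcription and interferon-gamma signalling, 19 of 21 genes were tested, 3 rose and 0 fell, with a median of -0.11; the share called is below the 19.7% of all genes. Ifngr1, the ligand-binding chain of the interferon-gamma receptor, was at 49.0, 48.2 and 46.9 FPKM in the controls and at 231, 233 and 167 FPKM in the Dot1l-deleted libraries. It rose 4.38-fold, a log2 change of 2.09 (limma adjusted p = 1.619e-05). Ifngr2, the signalling chain, rose from 7.79 ± 0.534 to 13.4 ± 2.18 FPKM (SD, n = 3). Its log2 change was 0.70 (limma adjusted p = 0.00751), and the call was lost (adjusted p up to 0.0554) without the first or the third control library. Spi1, the myeloid ETS factor PU.1, was at 48.2, 46.6 and 43.0 FPKM against 122, 111 and 81.9 FPKM, a log2 change of 1.16 (limma adjusted p = 0.00122).

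The DNA-binding subunits of the class II enhanceosome were expressed in both groups. Rfx5, which binds the X box, was at 11.8 ± 0.656 FPKM in the controls and at 8.76 ± 1.19 in the Dot1l-deleted libraries (SD, n = 3), a log2 change of -0.40 (limma adjusted p = 0.0723). Kat2b, an acetyltransferase that works with Ciita, had a log2 change of -0.44 (limma adjusted p = 0.0524). Irf1, the interferon-induced factor that acts on Ciita, had one of 0.45 (limma adjusted p = 0.0696). Whether these 3 were called changed with the setting. After scaling Rfx5 (-0.23, limma adjusted p = 0.0249) and Kat2b (-0.28, limma adjusted p = 0.0176) were called lower and Irf1 (0.62, limma adjusted p = 7.954e-05) higher. All 3 were called in these directions when the third Dot1l-deleted library was left out (limma adjusted p = 0.0241, 0.0201 and 0.00078). In the whole list 7 genes were called higher and 3 lower after scaling, where 45.3% of all genes were called, and 6 and 3 without that library, where 38.4% were.

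Among genes of endosomal processing and class II turnover, 14 of 17 were tested, 4 rose and 1 fell, with a median of -0.01 (19.7% of all genes were called). After scaling 8 were called higher and 2 lower, and without the third Dot1l-deleted library 6 and 3 (45.3% and 38.4% of all genes). Ctss, the protease best known for trimming the invariant chain, was at 1.16, 2.15 and 0.711 FPKM in the controls and at 5.91, 5.33 and 3.32 FPKM in the Dot1l-deleted libraries. Its log2 change was 1.34 (limma adjusted p = 0.0038) and the groups did not overlap. Ctsh, an aminopeptidase, went from 0.255 ± 0.129 to 1.85 ± 0.265 FPKM (SD, n = 3), a log2 change of 1.18 (limma adjusted p = 0.00205), and passed the filter only through the Dot1l-deleted group. Ctsb, an abundant endosomal protease, rose from 62.1 ± 1.95 to 107 ± 16.1 FPKM (SD, n = 3), a log2 change of 0.77 (limma adjusted p = 0.00881). Ctsb lost its call (adjusted p up to 0.059) without the second or the third control library. Ctsz rose with a log2 change of 0.62 (limma adjusted p = 0.0488). March8, a ubiquitin ligase that sends class II molecules to degradation, fell by 0.55 on the log2 scale (limma adjusted p = 0.0413). Ifi30, the thiol reductase of antigen processing, was at 61.8 ± 3.77 against 49.2 ± 6.04 FPKM (SD, n = 3; limma adjusted p = 0.188), and was called lower without the third Dot1l-deleted library (limma adjusted p = 0.0499). Calls for Ctsz, March8, H2-K1, H2-Q4 and H2-Ke6 were each lost without any 1 of the 3 control libraries (adjusted p up to 0.21 over all alternatives), those of Ctsz, H2-Q4 and H2-Ke6 also without the first or the second Dot1l-deleted library, and that of March8 without the second.

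**Figure D5:**
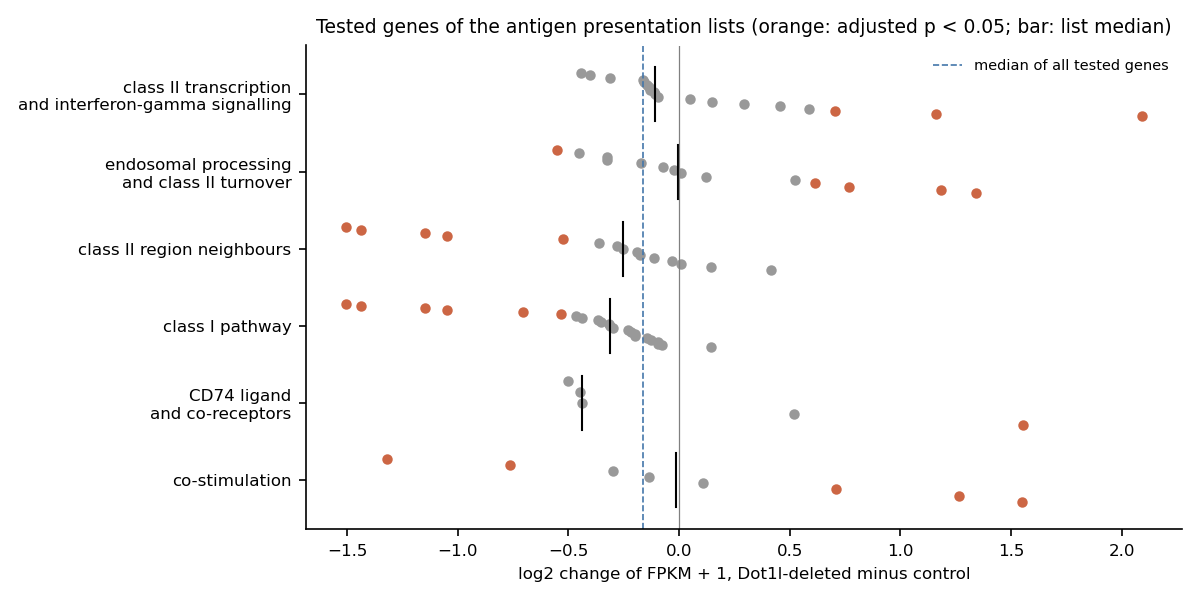
Log2 change of FPKM + 1 of each tested gene in 6 antigen presentation lists, in orange where the adjusted p was under 0.05; black bars are list medians and the dashed line is the median of all tested genes (-0.16). Called genes of the class I list and the region neighbours lie on the lower side (Psmb8 at -1.51), and those of class II transcription on the higher side (Ifngr1 at 2.09).

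Cd74 also serves as a surface receptor for the cytokine MIF, together with Cd44 and chemokine receptors. In this list 5 of 6 genes were tested, 1 rose and 0 fell, with a median of -0.44 (19.7% of all genes were called). After scaling 2 were called higher and 2 lower (45.3% of all genes were called). Quantile normalization gave 2 higher and 3 lower, and over all genes it gave 5608 calls (2345 as deposited). Leaving out the third Dot1l-deleted library gave 2 higher and 1 lower (38.4% of all genes). Cxcr2, a receptor of neutrophil chemokines, was at 2.65, 2.14 and 1.61 FPKM against 7.21, 9.67 and 7.65 FPKM, and rose by a log2 change of 1.56 (limma adjusted p = 0.000112). Cd44 had a log2 change of 0.52 (limma adjusted p = 0.0567), Cxcr4 one of -0.50 (limma adjusted p = 0.0569) and Ddt, a relative of Mif, one of -0.44 (limma adjusted p = 0.15). After scaling Cd44 was called higher (limma adjusted p = 0.000109) and Cxcr4 (limma adjusted p = 0.00341) and Ddt (limma adjusted p = 0.0298) lower, and without the third Dot1l-deleted library the calls of Cd44 and Cxcr4 were made too. Mif itself was at 176 ± 19.8 against 130 ± 30.4 FPKM (SD, n = 3; limma adjusted p = 0.164).

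Co-stimulatory ligands, which T cells need beside the class II signal, went both ways. Of 12 listed genes 8 were tested, 3 rose and 2 fell, with a median of -0.01 (19.7% of all genes were called). After scaling 4 were called higher and 2 lower, and without the third Dot1l-deleted library 3 and 1 (45.3% and 38.4% of all genes). Cd80, a ligand of CD28, was at 0.301, 0.126 and 0.303 FPKM against 2.18, 3.14 and 2.62 FPKM, a log2 change of 1.55 (limma adjusted p = 0.000289). Cd276, a B7 family member, was at 0.729, 0.765 and 0.525 FPKM against 3.02, 3.28 and 2.75 FPKM, a log2 change of 1.26 (limma adjusted p = 0.000478). Cd80 and Cd276 passed the filter only through the Dot1l-deleted group. Icosl, the ligand of ICOS, rose from 1.12 ± 0.0635 to 2.47 ± 0.25 FPKM (SD, n = 3; log2 change 0.71, limma adjusted p = 0.0133). Tnfsf4, the ligand of OX40, fell from 4.05, 3.96 and 4.94 FPKM to 1.11, 1.16 and 1.11 FPKM, a log2 change of -1.32 (limma adjusted p = 0.000192). Tnfsf9, the ligand of 4-1BB, fell by 0.76 on the log2 scale (limma adjusted p = 0.019) and lost its call (adjusted p up to 0.0976 over all alternatives) without the first or the second control library or without the second or the third Dot1l-deleted library. Cd86, the other ligand of CD28, was listed at 0 in all controls and did not exceed 0.0769 FPKM in the Dot1l-deleted libraries.

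Over the 6 lists, which share some genes, 94 distinct genes were in the files and 79 were tested. As deposited, 21 of the 79 were called changed, 11 higher and 10 lower (26.6%, against 19.7% of all genes). Without the third Dot1l-deleted library 41 were, 20 higher and 21 lower (51.9%, against 38.4%), and after scaling 46 were (58.2%, against 45.3%). None of the 21 turned direction under the 15 alternatives. These genes were picked by their call and the alternatives refit the same libraries, so this is not separate evidence. The lists were chosen with earlier results of these data known.

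Markers of cells that could bring class II RNA into the libraries were summed in each one. The labelled cells were checked with 10 myeloid progenitor markers, of which none was at 0; their sum was 2429 to 2620 FPKM in the controls and 4406 to 6540 in the Dot1l-deleted libraries, and 5 rose and 3 fell. Among the latter, Cd34, which defines common myeloid progenitors, went from 750 ± 14 to 123 ± 21.1 FPKM (SD, n = 3), and Kit, the receptor of SCF, from 117 ± 6.81 to 57.6 ± 11.9. Among the 5 that rose, Spi1 went from 45.9 ± 2.65 to 105 ± 21.0 FPKM (SD, n = 3). More of these markers rose than fell, so Cd34 and Kit do not stand for the list. The sum of 14 monocyte and macrophage markers was 170 to 192 FPKM in the controls and 884 to 1167 in the Dot1l-deleted libraries. Of 8 tested, 6 rose and 1 fell, while C1qa was at 0 in all libraries and 4 markers stayed below 1 FPKM. Over all tested genes 7.43% were called higher and 12.2% lower. These markers moved in the same direction as Cd74, and their part in its result was not tested.

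The sum of 17 dendritic cell markers was 181 to 197 FPKM in the controls and 110 to 171 in the Dot1l-deleted libraries. Of 6 tested, 2 rose and 3 fell (7.43% and 12.2% over all genes). Flt3, the progenitor and dendritic cell receptor, was the largest fall, from 66.5 ± 5.77 to 4.01 ± 0.863 FPKM (SD, n = 3), while Cd209a and Siglech were at 0 in all libraries and 9 of the 17 stayed below 1 FPKM. The sum of 10 T and innate lymphoid markers went from 66.4 to 73.0 FPKM in the controls to 15.3 to 21.0 in the Dot1l-deleted libraries, mostly through Thy1; Cd3g and Cd8a were among those at 0 and 8 stayed below 1 FPKM. The dendritic cell sum was lower mainly through Flt3. After scaling, 3 of the tested dendritic cell markers were called higher and 3 lower (45.3% of all genes were called). The dendritic cell and the T and innate lymphoid sums were lower where H2-DMa, H2-Ob and H2-Ab1 were lower. Their part in that was not tested. The sum of 14 B cell markers was 4.73 to 7.86 FPKM against 6.01 to 10.1 FPKM, with Ms4a1 and Cd22 among those at 0 and 11 below 1 FPKM in all libraries.

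The genes whose log2(FPKM + 1) followed a member most closely over the 6 libraries, by Pearson correlation, were listed as a description. The libraries form the 2 groups, so such a measure mostly ranks how sharply a gene separates them, and no coefficient is given. For H2-DMa they were Myct1, Thy1 and Cd34, with falls of 3.06, 2.21 and 2.61 on the log2 scale against 2.10 for H2-DMa. For H2-Ob they were Trpm4, Fkbp7 and Alg14, with log2 changes of -0.49, -0.57 and -0.58; Trpm4 was not called (limma adjusted p = 0.0739). For Cd74 they were Lpl, Bcl2l14 and Ramp1, with log2 changes of 2.57, 0.88 and 1.72.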

How the data were processed

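The deposited values are FPKM per gene, 1 table per library, made by the authors; per the submitters' processing notes the tools included CASAVA 1.8.2, GSNAP, SAMtools and Cuffdiff with build mm9. The kit kept strand, per the labels' protocols, but no source used here says whether counting used it. A placeholder (999999999) stood in 378 of 31626 rows in at least 1 library (304 to 318 per library), and these rows were dropped. Members H2-Aa and H2-Ab1, and several listed genes, were matched by Ensembl identifier through GENCODE M21 names; 174 of 176 list entries matched. limma 3.58.1 (R 4.3.3; lmFit, eBayes with trend) was fitted to log2(FPKM + 1) of the 11924 genes with a mean of at least 1 FPKM over the 6 libraries, with Benjamini-Hochberg adjustment over all of them and a threshold of 0.05. The fit was tested on simulated data with independent noise for each gene and library. The simulation held no shift shared by a library, so it does not cover one such as that of the third Dot1l-deleted library. The members and lists were chosen with earlier results of these data known. Named were Dot1l, all members, up to 4 genes per list with the smallest adjusted p, and the 3 genes most like H2-DMa, H2-Ob and Cd74; Ctsz, H2-K1, H2-Q4, H2-Ke6, Tnfsf9, Rfx5, Irf1, Ifi30, B2m, Psmb10, Brd2, Col11a2, Mif, Cd86, Kit and Flt3 were named after their values were seen. Alternatives changed the pseudocount, filter, scaling, trend and replicate block and left out each library. Using the identifier-matched rows, scaling without a filter, and scaling of the pair differences were added after seeing the data. Promoter sequences are RefSeq's (GRCm38.p6), and no coordinates were converted.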

Additional observations from a re-analysis of the deposited data

How the results depend on the processing

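With FPKM and 3 libraries a group, the spread between libraries limits what can be called, and the third Dot1l-deleted library widens it most. Over all genes, 2345 were called; the count was 5401 after median-of-ratios scaling (2740 higher, 2661 lower), 5608 after quantile normalization (2412 higher, 3196 lower) and 6209 with that scaling and no filter (3207 higher, 3002 lower), and 1342 were called higher with no filter alone. Leaving out 1 library gave 1428 to 4573 calls (661 to 2069 higher, 763 to 2504 lower), the most without the third Dot1l-deleted library. Of the members found by symbol, 3 were called, and 2 were higher after scaling, where H2-DMb1 joined Cd74; with the rows matched by identifier 4 were called. The summed H2-DMb genes, not called as deposited, were called at log2 changes of 0.23 after scaling, 0.19 after quantile normalization and 0.21 with scaling and no filter. Of pathway genes 21 were called (11 higher, 10 lower); the count was 46 after scaling (25 and 21), 50 after quantile normalization (23 and 27) and 46 with scaling and no filter (26 and 20), and with no filter alone 5 were lower. Leaving out 1 library gave 14 to 41 calls (8 to 20 higher, 5 to 21 lower). Of the 21 pathway genes, 13 were called under all alternatives and 8 lost the call when some library was left out. No result reversed among those called. Same-numbered libraries did not deviate together (correlations of -0.030, -0.038 and 0.013), which cannot settle whether they were paired. A fit with the replicate block called 2953 genes (1152 higher), kept every call of the members and gave 24 pathway genes. The sign-flip test of the pairs with that block cannot go below an exact p of 0.25.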
